A study of Mus musculus with 6 samples.

Results

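Heat shock proteins of the HSP70, HSP110, HSP90, small HSP and chaperonin families, the DnaJ proteins that work with them, and the regulators Hsf1 and Bag3 were followed in RNA from mouse stomach. Members were taken by gene symbol, as every Hspa, Hspb, Hspd, Hspe, Hsph, Dnaja, Dnajb and Dnajc gene in the table together with Hsp90aa1, Hsp90ab1, Bag3 and Hsf1, without the endoplasmic reticulum chaperones Hspa5, Dnajb9, Dnajb11 and Dnajc3. This gave 65 of the 23550 genes, of which 57 reached 1 FPKM in at least 3 of the 6 libraries, against 11738 genes of the whole table. FPKM is the number of fragments scaled by gene length and by the size of the library. Not every member is cytosolic: Hspa9, Hspd1 and Hspe1 are among those known as mitochondrial, and Dnajc10 is among those of the endoplasmic reticulum.

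There were 3 Riclin libraries (replicates 2, 3 and 4) and 3 saline libraries (replicates 1, 2 and 4). Riclin, a polysaccharide fibre, was given to mice by gavage at 20 mg per kg, and the control mice received normal saline the same way. The experiment lasted 14 days and asked about the mucosal defence of the stomach. The sources used here give neither strain, age nor sex, nor whether these animals also received ethanol, nor whether each library is a separate animal. The p-values therefore measure the spread between libraries, which may be technical. Marker genes of the gastric glands were abundant in both groups, with 5 parietal cell genes summing to 4119 to 5563 FPKM in Riclin and 3089 to 4569 in saline, and 4 chief cell genes to 60751 to 81994 FPKM in Riclin and 34087 to 64064 in saline. All 5 parietal genes (median log2 fold change 0.34, 3 with no overlap) and all 4 chief cell genes (median 0.58, 1 with no overlap) were higher in mean in Riclin. Of all genes tested, 61.3% had a positive log2 fold change and 8.14% lay wholly above in Riclin. Surface mucous genes went the other way, with 0 of 5 higher and a median of -0.15. Of these 1, Krt20, lay wholly below, as did 3.02% of all genes tested.

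Members of the HSP70 family hold unfolded stretches of other proteins in a cycle of ATP binding and release. DnaJ proteins deliver the client and start ATP hydrolysis through their J domain, and HSP110 proteins such as Hsph1 then exchange the nucleotide. HSP90 finishes the folding of kinases and receptors, and small HSPs hold unfolded proteins in large oligomers until HSP70 takes them over. When unfolded proteins accumulate, the transcription factor HSF1 is set free, forms trimers and binds heat shock elements, which are inverted repeats of GAA, in front of the inducible chaperone genes. The stomach lining meets acid, pepsin and swallowed irritants, and inducible HSP70 is known there as a protective protein.

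Promoter windows of RefSeq on GRCm38.p6, from 250 bases before to 50 bases after each annotated start, were available for 51 of the 65 members. The windows are shown for 5 of these members. Whether their heat shock elements bear on the expression values that follow was not tested. Capitals mark a 2-unit element, GAANNTTC or TTCNNGAA, where N is any base, or a 3-unit element, in which a further GAA or TTC follows in alternation after 2 more bases. Both strands were searched, and every 3-unit match contains 2-unit matches.
Hspa1a, chr17:34972107-34972406, minus strand: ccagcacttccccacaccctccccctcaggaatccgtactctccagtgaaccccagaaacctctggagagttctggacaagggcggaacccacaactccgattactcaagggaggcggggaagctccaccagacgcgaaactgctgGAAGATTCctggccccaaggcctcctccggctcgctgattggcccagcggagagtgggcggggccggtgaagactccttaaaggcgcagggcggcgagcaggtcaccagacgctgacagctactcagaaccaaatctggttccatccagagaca
Hspa1b, chr17:34959189-34959488, minus strand: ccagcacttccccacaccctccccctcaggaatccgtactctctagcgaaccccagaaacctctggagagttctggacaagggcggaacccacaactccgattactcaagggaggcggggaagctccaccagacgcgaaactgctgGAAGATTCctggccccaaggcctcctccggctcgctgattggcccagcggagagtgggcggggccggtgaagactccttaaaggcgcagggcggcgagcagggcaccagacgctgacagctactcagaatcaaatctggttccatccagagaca
Hsph1, chr5:149636266-149636565, minus strand: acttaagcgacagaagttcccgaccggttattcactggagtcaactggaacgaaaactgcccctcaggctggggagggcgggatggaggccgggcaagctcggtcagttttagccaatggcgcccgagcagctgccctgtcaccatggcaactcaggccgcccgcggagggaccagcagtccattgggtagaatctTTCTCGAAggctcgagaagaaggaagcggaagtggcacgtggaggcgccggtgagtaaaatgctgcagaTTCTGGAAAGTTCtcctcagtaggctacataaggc
Hspd1, chr1:55087883-55088182, minus strand: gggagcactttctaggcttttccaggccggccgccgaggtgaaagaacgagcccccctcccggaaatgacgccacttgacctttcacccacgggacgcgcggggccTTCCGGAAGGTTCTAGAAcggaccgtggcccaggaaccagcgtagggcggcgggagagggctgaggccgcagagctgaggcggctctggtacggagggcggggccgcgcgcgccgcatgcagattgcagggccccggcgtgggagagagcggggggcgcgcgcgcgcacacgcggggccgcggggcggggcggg
Hspe1, chr1:55087898-55088197, plus strand: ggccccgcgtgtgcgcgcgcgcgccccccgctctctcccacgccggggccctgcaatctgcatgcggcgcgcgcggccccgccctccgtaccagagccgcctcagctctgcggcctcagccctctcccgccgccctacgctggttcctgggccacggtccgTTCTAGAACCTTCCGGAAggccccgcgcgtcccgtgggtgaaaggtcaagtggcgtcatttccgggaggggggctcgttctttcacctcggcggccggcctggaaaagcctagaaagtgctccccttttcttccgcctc

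The Hspa1a and Hspa1b windows differ at 4 of 300 positions and carry the same 2-unit element at positions -104 to -97 from the start. Hspd1 and Hspe1, the mitochondrial HSP60 and HSP10, lie head to head, and the 18 capital bases of their windows are the same bases read on opposite strands, from 55088059 to 55088076 on chromosome 1. Another annotated start of Hspd1 has its window at 55088194 to 55088493, with 0 matches of either kind. The Hsph1 window shown holds its 3-unit element after the start, at positions 15 to 27. Counted from the other annotated Hsph1 start, these are positions 36 to 48. A 3-unit element was found in 4 of the 51 members with a window, 7.84%, against 0.662% of 27025 genes in the table of promoters. A 2-unit element was found in 16 members, 31.4%, against 17.0% of those genes. These are matches of letters and do not show binding.

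In both groups a few constitutive chaperones made up most of the signal. Hsp90ab1, the constitutive HSP90, took 24.2 to 27.3% of the members' summed FPKM in each library, and Hspa8, the constitutive HSP70, 15.0 to 18.4%. The 6 most abundant members, which add the mitochondrial Hspa9, Hspd1 and Hspe1 and the inducible HSP90 gene Hsp90aa1, took 62.1 to 65.2%. The summed FPKM of all 65 members was 1875, 2552 and 1886 in Riclin replicates 2, 3 and 4, against 1848, 1799 and 1941 in saline replicates 1, 2 and 4. Riclin replicate 3 stood alone, and the other 5 libraries lay close together.

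No member passed the adjusted threshold of 0.05 in the comparison of Riclin with saline by limma on log2(FPKM + 1), and neither did any gene of the 11738 tested, so the share called was 0% of all genes. The smallest adjusted p of a member was 0.699, for Hspb7. At an unadjusted p under 0.05 there were 693 genes, 5.9% of all tested, and limma's voom on reads recovered from the FPKM values also called 0 genes after adjustment. Differences in the following paragraphs are therefore means with their spread, none of them past the test.

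Library composition bears on all of these values. Transcripts of pancreatic acinar cells (23 genes of a list of 24) took 11.8, 0.0655 and 10.9% of reads in Riclin replicates 2, 3 and 4, against 4.25, 17.1 and 16.2% in saline replicates 1, 2 and 4. FPKM is a share of the library, so other genes stand higher where these transcripts are few, and in Riclin replicate 3 there were 4 of the 23 genes listed at 0. Totals of recovered reads ran from 30688972 to 39772458 per library. Because the tissue was not separated into cells, fewer cells of a type and less RNA per cell cannot be told apart.

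Among the HSP70 genes, the inducible pair Hspa1a and Hspa1b had the largest log2 fold changes. Hspa1b measured 13.5, 27.8 and 8.33 FPKM in Riclin replicates 2, 3 and 4, against 3.69, 6.85 and 11.6 in saline replicates 1, 2 and 4. The groups overlapped, since Riclin replicate 4 lay below saline replicate 4. Its mean was 16.6 ± 10.1 FPKM in Riclin and 7.37 ± 3.97 in saline (SD, n = 3 each), a log2 fold change of 1.03 (SE 0.461, limma adjusted p = 0.82). That change was 0.59 without Riclin replicate 3, 0.67 without saline replicate 1 and 0.23 without both.

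Hspa1a measured 9.26, 28.8 and 3.55 FPKM in Riclin replicates 2, 3 and 4, against 2.03, 6.63 and 7.17 in saline replicates 1, 2 and 4. Riclin replicate 4 lay below saline replicates 2 and 4, and Riclin replicate 3 was far above all others. The difference of 0.96 on the log2 scale (SE 0.663, limma adjusted p = 0.861) came to 0.25 without Riclin replicate 3, to 1.61 when Riclin replicate 4 was left out and to 0.50 when saline replicate 1 was, and it turned to -0.21 when both Riclin replicate 3 and saline replicate 1 were left out. The copies lie on chromosome 17 of GRCm38, Hspa1a from 34969190 to 34972156 and Hspa1b from 34956436 to 34959238, both on the minus strand. Of all stretches of 50 bases in the coding sequence of Hspa1b, 82.3% also occur in Hspa1a, so the division of reads between them is uncertain. Their sum was 22.8, 56.7 and 11.9 FPKM in the Riclin libraries and 5.72, 13.5 and 18.7 in the saline libraries, in the same order.

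Hspa8, which folds new and damaged proteins in every cell, had no overlap between the groups. It measured 346, 460 and 331 FPKM in Riclin replicates 2, 3 and 4, against 277, 276 and 306 in saline replicates 1, 2 and 4. The means were 379 ± 70.6 FPKM in Riclin and 286 ± 16.9 in saline (SD, n = 3 each), 1.32-fold apart, with a log2 fold change of 0.39 (SE 0.172, limma adjusted p = 0.82). It was 0.24 without Riclin replicate 3 and 0.22 when saline replicate 1 was left out as well, and the groups stayed apart under each of 3 other scalings. The endothelial HSP70 relative Hspa12b also did not overlap, at 2.04 to 2.07 FPKM in Riclin and 1.65 to 1.97 in saline, but its groups overlapped with median-of-ratios scaling and with acinar genes removed. The mitochondrial Hspa9, part of the protein import motor, averaged 123 ± 15.6 FPKM in Riclin and 117 ± 5.30 in saline (SD, n = 3 each). Hspa14, Hspa13 and Hspa2 had log2 fold changes of 0.03, -0.02 and -0.06.

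In the HSP110 family, Hsph1, the heat-inducible exchange factor, measured 11.1, 17.5 and 8.57 FPKM in Riclin replicates 2, 3 and 4, against 6.92, 5.87 and 9.49 in saline replicates 1, 2 and 4. Only Riclin replicate 4 and saline replicate 4 crossed. The means were 12.4 ± 4.63 FPKM in Riclin and 7.43 ± 1.86 in saline (SD, n = 3 each), with a log2 fold change of 0.63 (SE 0.254, limma adjusted p = 0.806), which was 0.37 without Riclin replicate 3 and 0.34 without saline replicate 1 as well. Its constitutive relative Hspa4 averaged 43.1 ± 5.09 FPKM in Riclin and 41.8 ± 3.99 in saline (SD, n = 3 each), and Hspa4l stayed near 2 FPKM in both groups, at 1.87 to 2.25 and 1.66 to 1.90 FPKM.

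Both HSP90 genes were highest in Riclin replicate 3. Hsp90aa1, the inducible form, measured 84.6, 164 and 76.2 FPKM in Riclin replicates 2, 3 and 4, against 75.2, 83.5 and 90.7 in saline replicates 1, 2 and 4. Outside that library the groups were intermixed, and the log2 fold change of 0.29 turned to -0.05 without it. Hsp90ab1 measured 454, 672 and 488 FPKM in Riclin replicates 2, 3 and 4, against 505, 456 and 512 in saline replicates 1, 2 and 4. Leaving out Riclin replicate 3 likewise turned its change of 0.11 to -0.06.

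**Figure D1:**
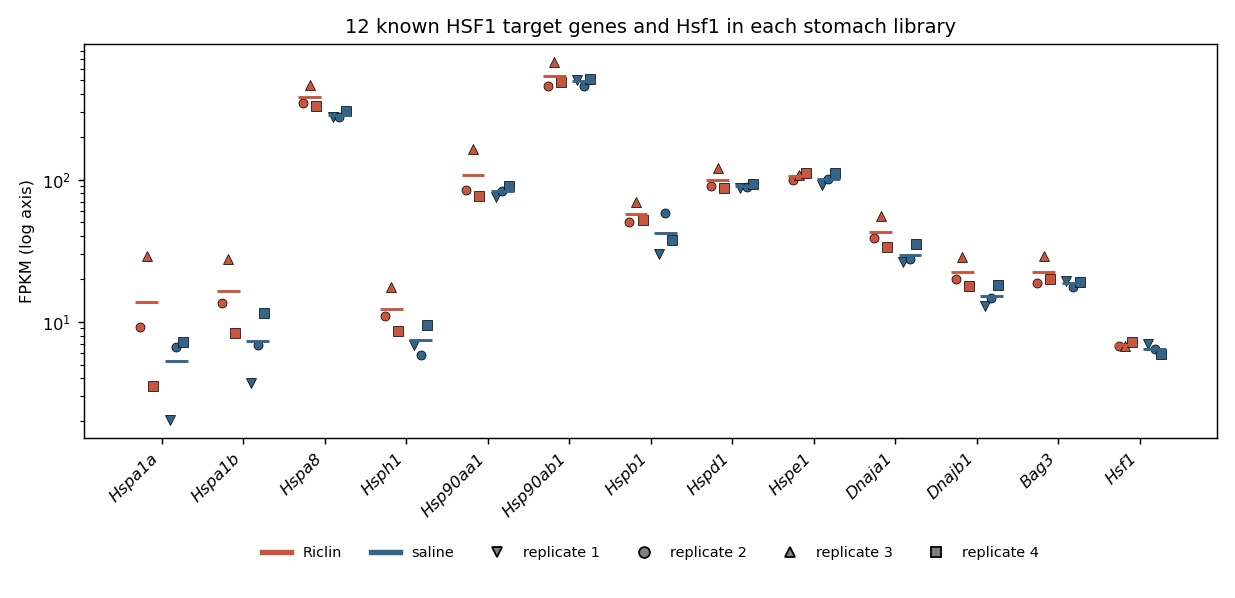
FPKM on a log axis of 12 genes known as targets of HSF1 and of Hsf1 itself, with Riclin libraries left (red) and saline libraries right (blue) for each gene, symbols for the replicate number and a line at each group mean. Riclin replicate 3 (triangle) is the top point in 11 of the 12 targets, Hspe1 being the exception, while the Hsf1 values of both groups lie between 5.90 and 7.26 FPKM.

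Of 4 tested DNAJA genes 3 were higher in mean in Riclin, and of 7 tested DNAJB genes 5. Dnajb1, the classical heat-inducible J protein, measured 20.1, 28.7 and 17.8 FPKM in Riclin replicates 2, 3 and 4, against 12.8, 14.7 and 18.0 in saline replicates 1, 2 and 4. Riclin replicate 4 lay just under saline replicate 4, and all other Riclin values lay above all saline values. The means were 22.2 ± 5.76 FPKM in Riclin and 15.2 ± 2.64 in saline (SD, n = 3 each), with a log2 fold change of 0.51 (SE 0.193, limma adjusted p = 0.791).

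Dnaja1, which escorts clients to cytosolic HSP70, measured 38.8, 55.8 and 33.5 FPKM in Riclin replicates 2, 3 and 4, against 26.2, 27.4 and 35.4 in saline replicates 1, 2 and 4. Here too only the replicates numbered 4 crossed, and the log2 fold change was 0.49 (SE 0.203, limma adjusted p = 0.82). Without Riclin replicate 3 the changes of Dnajb1 and Dnaja1 were 0.31 and 0.28, and without saline replicate 1 as well both were 0.20. Dnaja4 did not overlap, with 6.39, 7.75 and 6.30 FPKM in Riclin replicates 2, 3 and 4 against 5.997, 4.89 and 5.20 in saline replicates 1, 2 and 4. The less inducible relatives were close to even in mean. Dnaja2 was at 37.8 ± 4.11 FPKM in Riclin and 40.1 ± 3.32 in saline (SD, n = 3 each). Dnajb6, which keeps aggregating proteins soluble, was at 18.6 ± 1.85 and 19.3 ± 0.806 FPKM (SD, n = 3 each). Under each of 3 other scalings every Riclin value of Dnajb6 lay below every saline value. For Dnaja2 this was so with acinar genes removed. The other tested DNAJB genes had log2 fold changes between -0.03 for Dnajb5 and 0.23 for Dnajb2.

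The 23 tested DNAJC genes, a mixed family joined only by the J domain, were split 13 higher and 10 lower in mean, with a median log2 fold change of 0.01. Dnajc28 measured 3.55, 3.97 and 3.55 FPKM in Riclin replicates 2, 3 and 4, against 3.19, 2.55 and 2.65 in saline replicates 1, 2 and 4. Its groups did not overlap, with a log2 fold change of 0.31 (SE 0.106, limma adjusted p = 0.791). Dnajc16, Dnajc18 and Dnajc25, proteins of the endoplasmic reticulum, also did not overlap, at log2 fold changes of 0.11, 0.16 and 0.18, but all 3 overlapped once acinar genes were removed. Dnajc28, like Dnaja4, stayed apart under each of 3 other scalings.

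At the lower end, Dnajc10, a disulfide reductase of the endoplasmic reticulum, measured 45.8, 55.8 and 40.1 FPKM in Riclin replicates 2, 3 and 4, against 63.4, 50.6 and 80.2 in saline replicates 1, 2 and 4. Riclin replicate 3 lay above saline replicate 2, but under each of 3 other scalings every Riclin value lay below every saline value. The log2 fold change was -0.43 (SE 0.194, limma adjusted p = 0.82). It was -0.27 without saline replicate 4, and over all alternatives it ran from -0.60 to -0.27. Dnajc24, an enzyme of diphthamide synthesis on elongation factor 2, and Dnajc19, of the mitochondrial import motor, had log2 fold changes of -0.22 and -0.18. That of Dnajc24 was -0.09 without Riclin replicate 2, -0.13 without saline replicate 4 and -0.38 when both Riclin replicate 3 and saline replicate 1 were left out. That of Dnajc19 was -0.12 without Riclin replicate 4 and -0.12 without saline replicate 4. Dnajc15, also mitochondrial, averaged 55.6 ± 12.8 FPKM in Riclin and 54.7 ± 4.32 in saline (SD, n = 3 each).

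Small HSPs, grouped here by the symbol Hspb alone, went both ways in mean, with 3 of 6 tested genes higher. Hspb1, the mouse HSP27 homologue, measured 50.7, 69.9 and 52.2 FPKM in Riclin replicates 2, 3 and 4, against 29.9, 58.1 and 37.5 in saline replicates 1, 2 and 4. Saline replicate 2 lay among the Riclin values, and the log2 fold change was 0.49 (SE 0.243, limma adjusted p = 0.823). It came to 0.28 when saline replicate 1 was left out, to 0.75 when saline replicate 2 was, and to 0.14 when both saline replicate 1 and Riclin replicate 3 were. Squamous keratinocytes also make Hspb1, and the summed FPKM of 10 forestomach genes moved with it, at 410, 439 and 311 in Riclin replicates 2, 3 and 4 against 79.5, 353 and 242 in saline replicates 1, 2 and 4. Of that list 8 genes were tested and all 8 were higher in mean in Riclin. The part of forestomach tissue in the Hspb1 values was not tested.

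Hspb7, a small HSP of heart and muscle, was the one tested member whose Riclin values all lay lower in the FPKM values as deposited. It measured 3.01, 2.52 and 2.499 FPKM in Riclin replicates 2, 3 and 4, against 3.49, 4.38 and 3.64 in saline replicates 1, 2 and 4, with a log2 fold change of -0.40 (SE 0.114, limma unadjusted p = 0.00896, adjusted p = 0.699). Smooth muscle genes stood beside it: 9 of 9 tested were lower in mean, whereas 61.3% of all genes tested had a positive log2 fold change. Of the 9, 4 lay wholly below in Riclin, 44.4% against 3.02% of all genes tested, and 0 passed the adjusted threshold by limma. The summed FPKM of the 9 was 1397 to 1614 in Riclin and 1514 to 1977 in saline. Of 6 skeletal muscle genes 2 were tested and went both ways, with log2 fold changes of 0.54 for Acta1 and -0.23 for Ckm. How far muscle in the samples enters the Hspb7 values was not tested. Hspb8, which binds Bag3 and is also a gene of muscle, averaged 13.6 ± 0.976 FPKM in Riclin and 13.3 ± 3.94 in saline (SD, n = 3 each). Hspb6 had a log2 fold change of 0.04, Hspb11 of -0.06 and Hspb2 of -0.15.

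Of the mitochondrial chaperonin, Hspd1 averaged 98.8 ± 18.4 FPKM in Riclin and 89.5 ± 3.38 in saline, and Hspe1 106 ± 5.81 and 100.7 ± 9.66 (SD, n = 3 each). Hspd1 was highest in Riclin replicate 3 at 120 FPKM, whereas Hspe1 was highest in Riclin replicate 4 at 111 FPKM, just above saline replicate 4 at 110. Their annotated spans overlap on opposite strands (55077835 to 55088243 and 55088132 to 55091307 on chromosome 1), and the sources used here do not say whether counting used strand.

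Of the regulators, Hsf1 itself measured 6.76, 6.73 and 7.26 FPKM in Riclin replicates 2, 3 and 4, against 6.97, 6.43 and 5.90 in saline replicates 1, 2 and 4. The groups overlapped, and Riclin replicate 3, highest in 11 of the 12 known targets, was the lowest Riclin library in Hsf1. Bag3, which links HSP70 to small HSPs and to autophagy, measured 18.7, 28.9 and 20.0 FPKM in Riclin replicates 2, 3 and 4, against 19.5, 17.7 and 19.1 in saline replicates 1, 2 and 4. On the log2 scale the difference was 0.23, 0.04 when Riclin replicate 3 was left out and 0.35 when Riclin replicate 2 was.

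**Figure D2:**
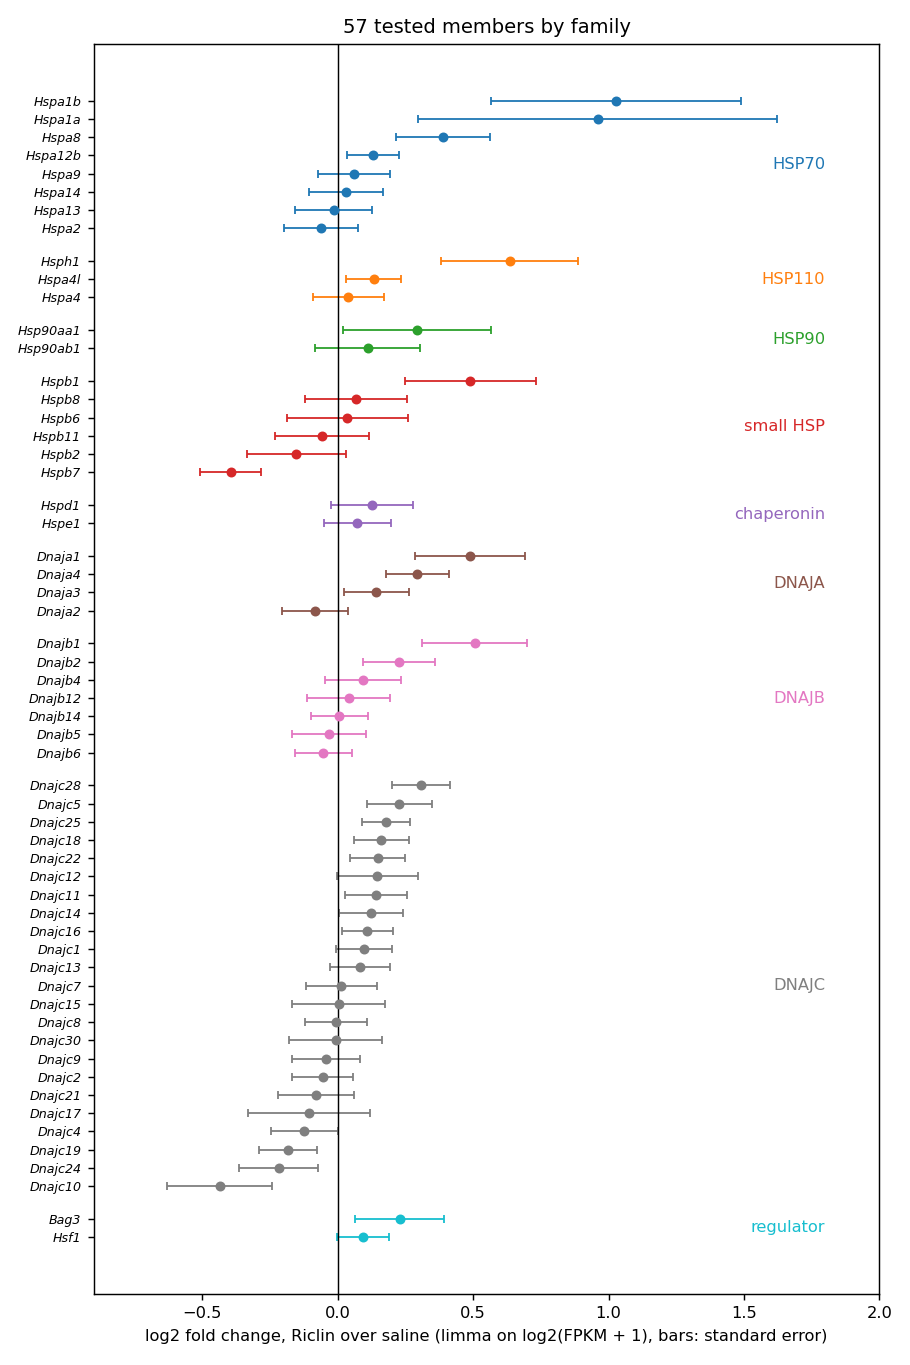
Log2 fold change of Riclin over saline for the 57 tested members, grouped by family, with bars of 1 standard error from the limma fit. Hspa1b (1.03), Hspa1a (0.96), Hsph1 (0.63) and Dnajb1 (0.51) have the largest positive values, Dnajc10 (-0.43) and Hspb7 (-0.40) the largest negative ones, and most DNAJC genes lie near 0.

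Over the 57 tested members, 39 had a positive log2 fold change, 68.4% against 61.3% of all genes tested, and the median was 0.08 against 0.04. With an unadjusted p under 0.05, 5 members were higher in Riclin (Dnajc28, Dnajb1, Dnaja4, Hsph1 and Dnaja1), 8.77% against a background of 4.07%, and 1 was lower (Hspb7), against a background of 1.83%. Leaving out single libraries changed that count of 5 to 0 (Riclin replicate 3), 1 (saline replicate 2), 2 (Riclin replicate 2), 3 (saline replicate 1), 4 (saline replicate 4) or 7 (Riclin replicate 4). Without Riclin replicate 3 the share over all genes fell as well, to 2.4%. For the other libraries left out that share was not worked out. In 7 members every Riclin value lay above every saline value, 12.3% against a background of 8.14%, and in 1 below, against 3.02%. With acinar genes removed and the libraries rescaled, 5 members lay above (8.77% against 4.99% of all genes) and 5 below (8.77% against 9.03%), and the share with a positive fold change was 50.9% against 42.4% of all genes.

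For description, 12 members known as targets of HSF1 were set apart from the rest. They include Hspa8 and Hsp90ab1, named above as constitutive and used below as less heat-inducible relatives in ratios. The members outside the 12 were not chosen as lacking HSF1 control. Among them Dnaja4, Dnajb4, Dnajb6, Dnajc10, Dnajc27, Hspb3, Hspb6 and Hspb8 also held a heat shock element in a promoter window. The 12 known HSF1 targets (Hspa1a, Hspa1b, Hspa8, Hsp90aa1, Hsp90ab1, Hsph1, Hspb1, Hspd1, Hspe1, Dnaja1, Dnajb1 and Bag3) all had positive log2 fold changes, from 0.07 to 1.03, with a median of 0.44. The 45 other tested members had a median of 0.04, with 27 positive, the same as the 0.04 over all genes. Of the targets, 1 had Riclin values wholly above (Hspa8), 8.33% against 8.14% of all genes. The parietal and chief cell genes given above were higher in Riclin as well and the surface mucous genes lower, and their part in these values was not tested. Among the 9 targets with a promoter window, 8 held a 2-unit heat shock element and 3 a 3-unit element, whereas of the other 42 members 8 and 1 did. The target with neither was Dnajb1, and the other member with a 3-unit element was Dnajb6. The list of targets was drawn up with earlier results of these data known, so these counts describe it and support nothing further.

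**Figure D3:**
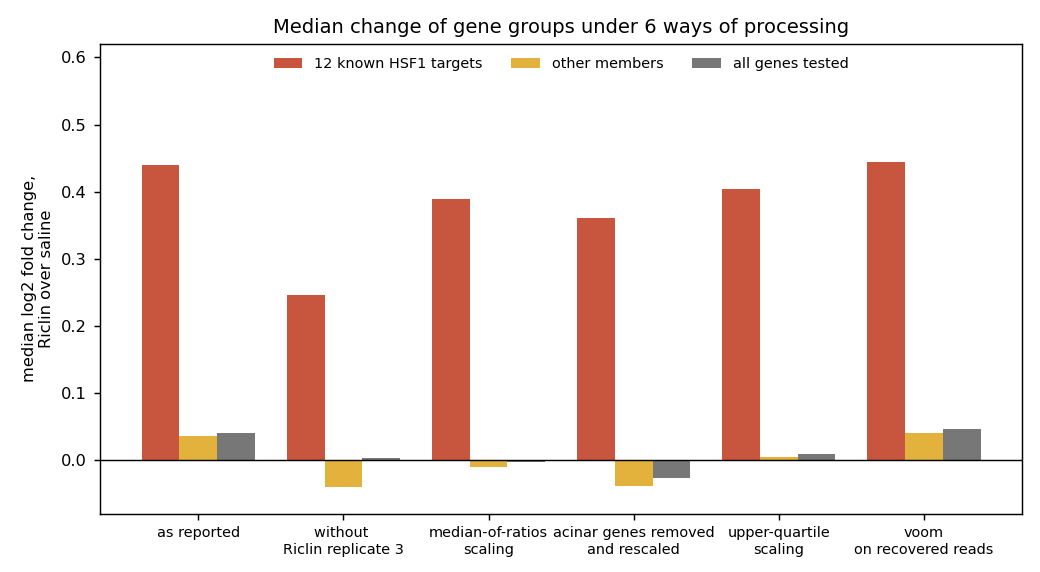
Median log2 fold change of Riclin over saline for the 12 known HSF1 targets (red), the other tested members (yellow) and all genes tested (grey), as reported and under 5 other ways of processing. The red bars run from 0.25 without Riclin replicate 3 to 0.44, and the yellow and grey bars stay within 0.05 of 0.

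The 12 targets kept a median of 0.36 when acinar genes were removed and the libraries rescaled, where all genes had -0.03 and the other members -0.04. With that rescaling 11 of 12 were positive, and Hspe1 was at -0.0066. Without Riclin replicate 3 the median of the 12 was 0.25, with 9 of 12 positive, against 0.0035 for all genes, and Hsp90aa1, Hsp90ab1 and Hspd1 turned negative. With both Riclin replicate 3 and saline replicate 1 left out it was 0.10.

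Single libraries carried much of the pattern. Riclin replicate 3 was the highest of the 6 libraries in 34 of the 57 tested members, 59.6% against 35.6% of all genes tested. With acinar genes removed and the libraries rescaled it was highest in 18, while its share over all genes was 8.82%. Saline replicate 1 was the lowest library in 12 members, 21.1% against 7.53% of all genes, among them Hspa1a, Hspa1b, Hspb1, Dnaja1 and Dnajb1.

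**Figure D4:**
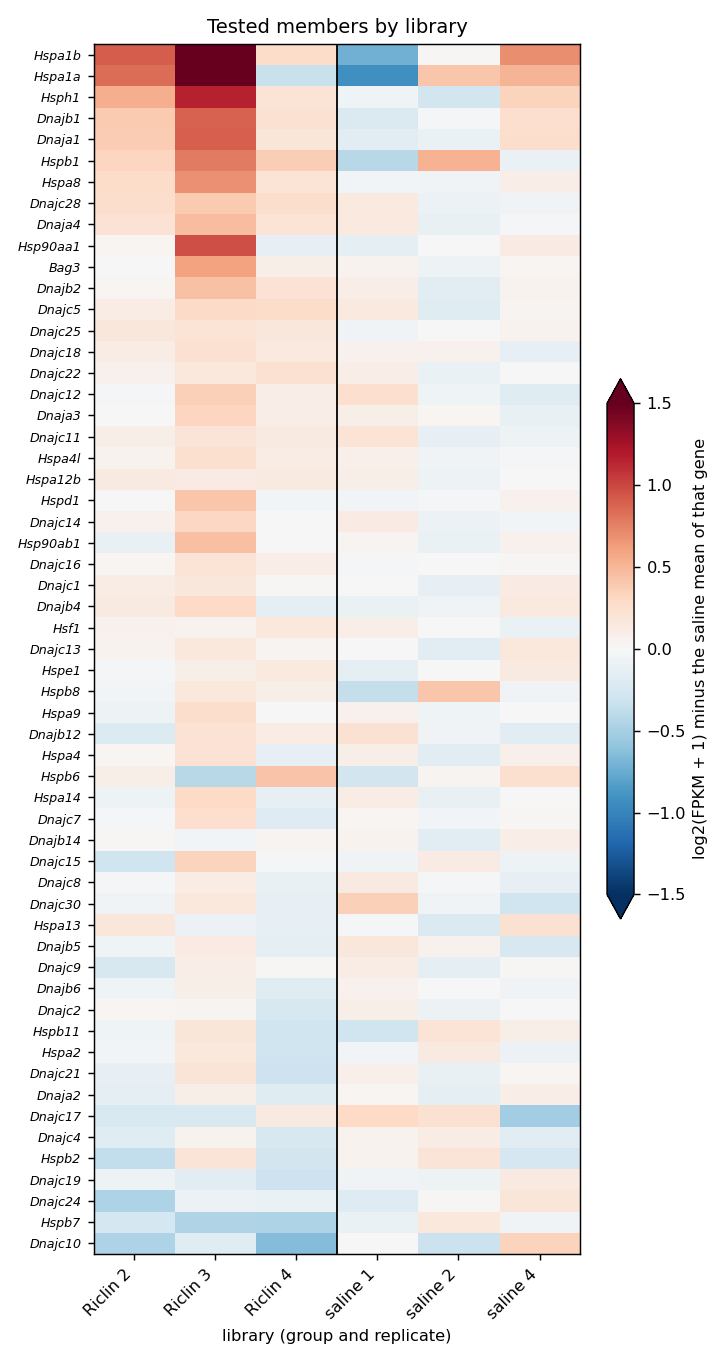
Log2(FPKM + 1) of each tested member in each library, less the mean of the 3 saline libraries for that gene, ordered by log2 fold change, with Riclin libraries left of the black line; red is higher and blue lower, and the colour stops at 1.5. Riclin replicate 3 is the darkest column at the top, where Hspa1b and Hspa1a stand, and saline replicate 1 is blue in both of these genes.

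Ratios between relatives within a library do not depend on how that library is scaled. They were formed, after the values were seen, for 5 pairs of a more and a less heat-inducible relative. Dnajb1 over Dnajb6 was 1.10, 1.40 and 1.05 in Riclin replicates 2, 3 and 4, against 0.636, 0.767 and 0.972 in saline replicates 1, 2 and 4. Dnaja1 over Dnaja2 was 1.08, 1.31 and 0.958 in Riclin replicates 2, 3 and 4, against 0.642, 0.754 and 0.824 in saline replicates 1, 2 and 4. Hsph1 over Hspa4 was 0.2604, 0.362 and 0.224 in Riclin replicates 2, 3 and 4, against 0.156, 0.158 and 0.217 in saline replicates 1, 2 and 4. In these 3 pairs every Riclin library lay above every saline library. The denominators Dnajb6 and Dnaja2 were themselves slightly lower in mean in Riclin, so the separation does not rest on Dnajb1 and Dnaja1 alone. For each of these 3 pairs the two-sided exact permutation p was 0.1, the smallest that 3 against 3 libraries can give. It was 0.167 after adjustment over the 5 pairs. Because the pairs were chosen with the values known, the permutation p-values describe them and do not test them. The sum of Hspa1a and Hspa1b over Hspa8, at 0.0359 to 0.123 in Riclin and 0.0206 to 0.0613 in saline, and Hsp90aa1 over Hsp90ab1, at 0.156 to 0.244 and 0.149 to 0.183, overlapped, each with an exact permutation p of 0.4, also 0.4 when adjusted.

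**Figure D5:**
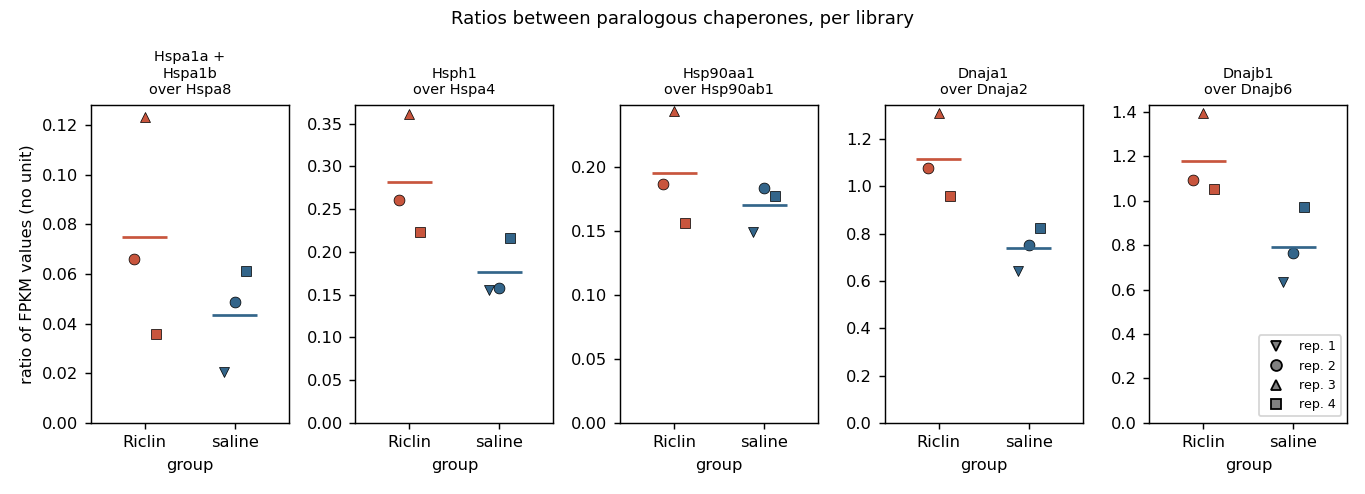
Ratio of FPKM values (no unit, axes from 0) between 5 pairs of related chaperones, with Riclin libraries left (red) and saline libraries right (blue), symbols for the replicate number and lines at the group means. The groups are apart for Hsph1 over Hspa4, Dnaja1 over Dnaja2 and Dnajb1 over Dnajb6, and they overlap for the 2 others.

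The partners of these chaperones showed the same lack of calls. Of 19 co-chaperones and HSP90 partners 14 had a positive log2 fold change, with a median of 0.11, and 0 passed by limma after adjustment. Fkbp5, an immunophilin of the HSP90 complex of steroid receptors, was the only one with an unadjusted p under 0.05, at 7.06, 8.61 and 7.69 FPKM in Riclin replicates 2, 3 and 4 against 6.24, 6.71 and 5.42 in saline replicates 1, 2 and 4. Its relative Fkbp4 measured 119, 155 and 134 FPKM in Riclin replicates 2, 3 and 4 against 117, 116 and 99.4 in saline replicates 1, 2 and 4. Stip1, which bridges HSP70 and HSP90, had a log2 fold change of 0.32 (SE 0.15). The 8 subunits of TRiC, the cytosolic chaperonin of actin and tubulin, had a median of 0.03 and a range of -0.06 to 0.16.

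Of the 5 endoplasmic reticulum chaperones set beside the members, Hspa5 had a log2 fold change of 0.35 and Dnajb9 of 0.30, and the 3 others lay between 0.07 and 0.09. Immediate early genes, which respond within minutes to handling and injury, had a positive log2 fold change in 3 of 9 tested, with a median of -0.12. The summed FPKM of the 10 listed was 184, 245 and 181 in Riclin replicates 2, 3 and 4. It was 209, 196 and 221 in saline replicates 1, 2 and 4. The sum was highest in Riclin replicate 3, but by gene only Jun and Ier3 were. Fos, Fosb, Egr1, Atf3, Dusp1 and Zfp36 were highest in saline replicate 4, and Junb and Ier2 in saline replicate 1. The part of tissue handling in the chaperone values was not tested.

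The 8 members under the level for testing are mostly genes of other tissues. Hspa1l, Dnajb3, Dnajb7 and Dnajb13, known from testis, stayed at or under 0.501 FPKM in every library, and Dnajc6, the auxilin of neurons, at or under 0.428. Hspb3, a muscle gene, was listed at 0 FPKM in Riclin replicates 3 and 4 and reached 0.207 in saline replicate 4. Hspa12a and Dnajc27 came closest, with highest values of 0.894 and 0.854 FPKM. Dnajb13, an axonemal protein, measured 0.0461, 0.114 and 0.0753 FPKM in Riclin replicates 2, 3 and 4, against 0.147, 0.413 and 0.352 in saline replicates 1, 2 and 4, resting on 3 to 26 recovered reads per library.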

How the data were processed

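The authors sequenced stomach RNA of mice given Riclin (3 libraries) or saline (3 libraries). Per the labels' protocols, RNA came from a TRIzol extraction and the VAHTS Universal V6 kit was used for the libraries. Per the submitters' processing notes, Bowtie2 and the build mm10 were used. The sources used here name no counter or annotation. FPKM values of 23550 genes are what the authors deposited. Groups come from the treatment label and replicate numbers from the titles.

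Genes reaching 1 FPKM in 3 or more libraries (11738) were put on the scale log2(FPKM + 1), which understates fold changes of low genes. They were compared with limma 3.58.1 (R 4.3.3) with an intensity trend, two-sided, and Benjamini-Hochberg adjustment over all 11738 at 0.05. On simulated data with 11738 genes for this comparison, 71 of 100 genes with a 2-fold change and 95 of 100 with a 4-fold change were called. Another 4 genes without a change were called too. Noise was drawn for each gene separately, without the shifts shared by a whole library that these data have. The simulation therefore does not show which changes could have been found here. Whole reads were recovered from steps in the FPKM values for 23548 genes (relative tolerance 1e-09) and used for depth, read shares and voom. Genes named are the 12 HSF1 targets, Hsf1, any member past the adjusted threshold, the 8 members with the smallest p, the 4 largest changes each way and the 2 most abundant per family. Others were named after their values were seen. Members and lists were chosen with earlier results of these data known. Alternatives were a pseudocount of 0.1, no filter, a minimum of 5 FPKM, scaling by median-of-ratios or upper-quartile factors, removal of acinar genes, a robust prior, a replicate block, voom and left-out libraries. Positions are from GENCODE on GRCm38, the assembly that mm10 names, and promoters from RefSeq on GRCm38.p6. Figures were drawn with matplotlib 3.10.9.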

Additional observations from a re-analysis of the deposited data

How the results depend on the processing

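No member passed the adjusted threshold under any of the 16 alternatives. Over all genes the count of 0 became 2 with a robust prior, and 0 to 1 with single libraries left out (1 without saline replicate 2). Members higher at an unadjusted p under 0.05, 5 as reported, numbered 2 with no filter, 2 with acinar genes removed and rescaled, 2 with both libraries low in pancreatic transcripts left out, 0 with the replicate block, and 0 to 7 with single libraries left out. Lower ones, 1 as reported, numbered 2 with no filter, median-of-ratios scaling, upper-quartile scaling, acinar genes removed, a robust prior, the replicate block and voom, 0 at an FPKM of 5, and 1 to 2 with single libraries left out. Over all genes the shares higher at that level were 2.62% with acinar genes removed and 2.4% without Riclin replicate 3. The shares of members were 3.51% and 0%. Genes lower at that level numbered 215 as reported, 507 with median-of-ratios scaling, 446 with upper-quartile scaling and 658 with acinar genes removed. Members with Riclin wholly above, 7 as reported, numbered 2 at an FPKM of 5, where fewer genes are tested, 14 with both low libraries left out and 7 to 14 with 1 left out. Members wholly below, 1 as reported, numbered 2 with no filter, 0 at an FPKM of 5, 3 with median-of-ratios and 3 with upper-quartile scaling, 5 with acinar genes removed, 9 with both low libraries left out and 1 to 7 with 1 left out. Over all genes the shares wholly below were 6.84% with median-of-ratios scaling, 5.94% with upper-quartile scaling and 9.03% with acinar genes removed, against 5.26%, 5.26% and 8.77% of members. Smaller groups overlap less often by construction. Counts of non-overlap were not run for the pseudocount, robust prior and block, which leave the order of FPKM values as it is, nor for voom. Positive members numbered 29 to 46 of 39 as reported, and their median ran from 0.01 to 0.12. The median of the 12 HSF1 targets was 0.10 under the replicate block, 0.10 when both low libraries were left out, and 0.25 to 0.53 with 1 left out. Replicate numbers 2 and 4 occur in both groups, but nothing says that they mark a shared animal or day. Deviations from the group means correlated over genes at 0.222 for number 2 and 0.0109 for number 4. The block rests on those 4 libraries, so its fold changes equal those with both low libraries left out.

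Of 25 named members 15 kept their direction in every alternative. With the replicate block, and equally with both low libraries left out, these turned: Hspa1a (-0.21), Hsp90aa1 (-0.12), Hsp90ab1 (-0.0382), Hspd1 (-0.042), Hspe1 (-0.0066), Dnajc15 (-0.19), Hspa4 (-0.0022), Hspa9 (-0.0082) and Hspb8 (-0.15). With 1 library left out, the range was -0.046 to 0.50 for Hsp90aa1, -0.0591 to 0.22 for Hsp90ab1, -0.0205 to 0.21 for Hspd1, -0.16 to 0.16 for Dnajc15, -0.0466 to 0.12 for Hspa4 and -0.0408 to 0.13 for Hspa9, each lowest without Riclin replicate 3, and -0.12 to 0.0107 for Dnajb6 and -0.11 to 0.28 for Hspb8. With acinar genes removed Hspe1 (-0.0066), Dnajc15 (-0.0752), Hspa4 (-0.0383), Hspa9 (-0.0202) and Hspb8 (-0.0071) turned. Dnajc15 was -0.0471 with median-of-ratios and -0.032 with upper-quartile scaling, and Hspa4 -0.0105 with median-of-ratios scaling. The causes were not tested. Under median-of-ratios scaling the median of all genes was -0.0036 against 0.04 as reported, 49.0% of genes were positive against 61.3%, and 56.1% of members against 68.4%.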
